A study of Mus musculus with 2 samples.

Results

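The genes described here encode scaffolds, linkers, kinases and trafficking adaptors of the postsynaptic density, measured by mRNA-seq in mouse cortical progenitors with and without knockdown of Phf6. They are 42 genes listed by name, and their rows were found by gene ID through a mouse annotation, among 47643 genes in all. Of these 42 genes, 40 reached 150 reads in siCtl, siPhf6 or both and were among the 10130 genes kept for testing, while Nrgn and Lin7b were below that limit.

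The postsynaptic density is the protein lattice under the receptor-bearing membrane of excitatory synapses. In textbook accounts it is layered: membrane-associated guanylate kinase (MAGUK) scaffolds hold receptors at the membrane, Dlgap proteins link them to Shank scaffolds, and Homer proteins tie Shank to metabotropic glutamate receptors and the endoplasmic reticulum. The calcium-dependent kinase CaMKII and the phosphatase calcineurin act on this lattice, and most of its parts are made by small families of paralogous genes that are used in different proportions by different neurons and at different ages.

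Both groups were cortical progenitors of WT genotype, labelled as male, established from the cortex of mice at E14. One group was electroporated with a pool of siRNAs against Phf6 (siPhf6), the other with a non-targeting siRNA (siCtl), and both were kept in culture for 5 days. PHF6 is an X-linked plant homeodomain zinc-finger regulator of transcription, and the comparison asks which transcripts differ when it is depleted. The study's methods give n = 3 per group, but each group is represented here by 1 count library and the sources do not state whether it holds pooled cultures. There is therefore no replicate check: every test below compares the reads of 1 library with those of the other, and every interval covers counting error only.

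The siCtl library held 12155311 reads in genes and the siPhf6 library 10561757, so that 1 read was worth 0.0823 and 0.0947 reads per 1000000 gene reads (RPM). Phf6 itself fell from 1420 to 310 reads (log2 ratio -1.99, 95% interval -2.17 to -1.81). Although the label is cortical progenitors, transcripts of neurons were abundant: the summed level of 14 neuronal markers was 4484 RPM in siCtl and 4644 RPM in siPhf6, that of 10 radial glia markers was 389 and 523 RPM, and that of 8 markers of dividing cells was 61.1 and 96.9 RPM. The radial glia sum was higher in siPhf6 by a log2 ratio of 0.43 (0.37 to 0.49) and the dividing cell sum by 0.66 (0.53 to 0.80), against 0.05 (0.03 to 0.07) for the neuronal sum. Where 13.4% of all kept genes were called higher and 12.4% lower by the rule given below, 5 of 6 kept radial glia markers, 3 of 4 kept markers of dividing cells and 1 of 14 neuronal markers were called higher and none of these lower. The summed level was 1360 and 1265 RPM for 9 markers of glutamatergic neurons and 354 and 349 RPM for 9 of GABAergic neurons. The 8 astrocyte markers summed to 424 and 546 RPM, whereas the 6 microglia markers summed to 4.94 and 6.25 RPM with none kept, and Cldn5 of endothelial cells and Neurog1 of intermediate progenitors were listed at 0 in both libraries. The part of such differences in makeup in the results below was not tested, and in bulk RNA fewer cells of a type cannot be told apart from less RNA per cell.

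As a group the postsynaptic density genes were centred on no difference. The median log2 ratio of siPhf6 to siCtl over the 40 kept members was -0.00239, with 20 above and 20 below 0 (its sign turned with a length or GC trend subtracted, at 0.016 and 0.0015), against a median of 0.00958 over all 10130 kept genes. Summed over all 42 genes, the level was 7381 RPM in siCtl and 7554 RPM in siPhf6 (log2 ratio 0.03, 0.02 to 0.05). The single genes ranged from -0.52 for Akap5 to 0.58 for Lzts3, and the median absolute log2 ratio was 0.129 for members and 0.160 for all kept genes.

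A gene was called at a Benjamini-Hochberg FDR under 0.01 over all kept genes and an absolute log2 ratio over 0.25, the p-values coming from a two-sided exact binomial comparison of read numbers. By this rule 9 of 40 members (22.5%) were higher in siPhf6, against a background of 13.4% of all kept genes, and 2 of 40 (5%) were lower, against 12.4%. The 9 higher genes were Lzts3, Homer2, Dlgap2, Dlg1, Dlgap1, Synpo, Shank1, Camk2d and Camk2a, and the 2 lower genes were Akap5 and Camk2g. At a fold over 1.5 none of the 40 was called in either direction, where the background was 4.18% higher and 3.23% lower. In edgeR's exact test, set to a coefficient of variation of 0.1 among cultures, none was called either, where the background was 1.63% higher and 0.849% lower, so that all member calls rest on counting error alone. Among genes with 1000 to 12000 reads summed over both libraries, 9 of 36 members (25%) had an absolute log2 ratio over 0.25, near the 24.7% of 6386 genes at that depth.

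**Figure D1:**
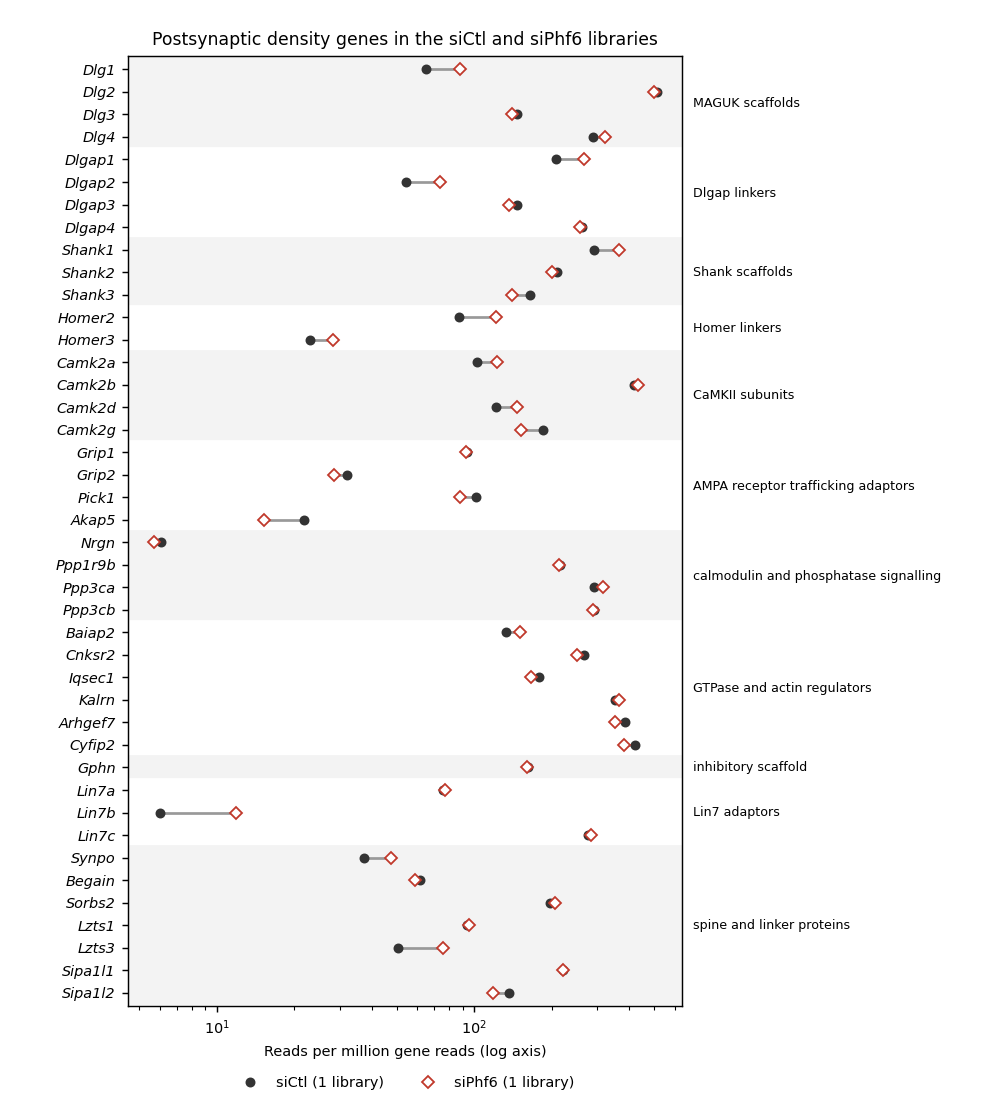
Level of each of the 42 postsynaptic density genes in reads per 1000000 gene reads (log axis) in the siCtl library (filled circles) and the siPhf6 library (open diamonds), 1 library per group, ordered by role. The levels run from about 6 RPM for Nrgn and Lin7b to 510 RPM for Dlg2, not corrected for gene length, and for most genes the symbols lie close together.

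The levels of the members differed far more from gene to gene than between the libraries. In RPM per kilobase of merged exon, Lin7c had the highest level in siCtl (61.3), followed by Cyfip2 (59.1), Camk2b (45.7), Gphn (43.3) and Ppp1r9b (42.2). On the same per-kilobase scale the lowest levels in siCtl were those of Akap5 (3.21), Grip2 (3.44), Synpo (3.92), Lin7b (4.11) and Nrgn (4.19). The order at the top depends on the length used: per kilobase of the longest transcript, a scale chosen after seeing the data, Camk2b was highest in siCtl (101.1), followed by Arhgef7 (78.1), Ppp3cb (75.9), Lin7c (65.5) and Dlg2 (65.3). Spearman's correlation of the levels per kilobase of merged exon between the libraries was 0.966 over the 42 genes, which is a description of points that share both libraries. Nrgn, which encodes the calmodulin-binding protein neurogranin of mature forebrain neurons, had 74 reads in siCtl and 60 in siPhf6 and was thus near the bottom of the set.

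The MAGUK scaffolds Dlg1 to Dlg4 encode SAP97, PSD-93, SAP102 and PSD-95, which bind receptor tails through PDZ domains. Of the 4 genes, 1 was called. Dlg1 (ENSMUSG00000022770, chr16:31663443-31875129 on GRCm38, the mm10 build, plus strand) had 791 reads or 65.1 RPM in siCtl and 932 reads or 88.2 RPM in siPhf6 (log2 ratio 0.44, 0.30 to 0.58). Dlg1 was thus 1.36-fold higher although the siPhf6 library was the shallower one.

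Dlg4, the gene of PSD-95, the most widely used marker of the excitatory postsynapse, had 288 RPM in siCtl and 322 RPM in siPhf6 (log2 ratio 0.16, 0.09 to 0.23), which lay under the limit for a call. Dlg2, the member with the most reads, had 6201 reads in siCtl and 5247 in siPhf6 (log2 ratio -0.04, -0.09 to 0.02). The X-linked Dlg3 had 1773 and 1479 reads (log2 ratio -0.06, -0.16 to 0.04). The intervals of Dlg2 and Dlg3 both span 0 and exclude a change of 0.25.

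The Dlgap (SAPAP) genes encode the linkers that join MAGUK scaffolds to Shank, and this family divided into a higher pair and a pair near 0. Dlgap1 (ENSMUSG00000003279, chr17:69969073-70821413, plus strand) had 2512 reads or 207 RPM in siCtl and 2822 reads or 267 RPM in siPhf6 (log2 ratio 0.37, 0.29 to 0.45). Dlgap2 (ENSMUSG00000047495, chr8:14095865-14847680, plus strand) had 657 reads or 54.1 RPM and 779 reads or 73.8 RPM (log2 ratio 0.45, 0.30 to 0.60). Both were called higher. Dlgap3 had 1778 and 1441 reads (log2 ratio -0.10, -0.20 to 0.00), and Dlgap4 had 3194 and 2705 reads (log2 ratio -0.04, -0.11 to 0.04). Neither of these was called.

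The Shank genes encode the large multidomain scaffolds of the deeper layer of the postsynaptic density, and their ratios were spread on both sides of 0. Shank1 (ENSMUSG00000038738, chr7:44310253-44360572, plus strand) had 3539 reads or 291 RPM in siCtl and 3839 reads or 363 RPM in siPhf6 (log2 ratio 0.32, 0.25 to 0.39), and was called higher. Shank2 had 2549 and 2120 reads (log2 ratio -0.06, -0.15 to 0.02). Shank3 (ENSMUSG00000022623, chr15:89499623-89560261, plus strand) had 1995 reads or 164 RPM and 1474 reads or 140 RPM (log2 ratio -0.23, -0.33 to -0.14). Shank3 fell just short of the limit of 0.25 and was not called, but its value became -0.29 and a call once the trend of the log2 ratio on GC content was subtracted.

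Among the Homer linkers, which carry an EVH1 domain that binds Shank and group I metabotropic glutamate receptors, both members were on the higher side. Homer2 (ENSMUSG00000025813, chr7:81600481-81707527, minus strand) had 1061 reads or 87.3 RPM in siCtl and 1277 reads or 121 RPM in siPhf6 (log2 ratio 0.47, 0.35 to 0.59), and was called higher. Homer3 had 280 and 298 reads (log2 ratio 0.29, 0.05 to 0.53), and was not called. Of the exonic bases of Homer3, 25.4% overlap those of Ddx49 on the opposite strand, and the library kit does not mark strand. Homer1, which is not among the 42 genes and was picked out after its values were seen, had 4305 and 4999 reads (log2 ratio 0.42, 0.36 to 0.48). Summed over Homer1, Homer2 and Homer3 the log2 ratio was 0.42 (0.37 to 0.47), and the share of the family's reads that came from Homer2 was 18.8% in siCtl and 19.4% in siPhf6. Most reads of this sum (76.2% in siCtl and 76.0% in siPhf6) were those of Homer1.

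**Figure D2:**
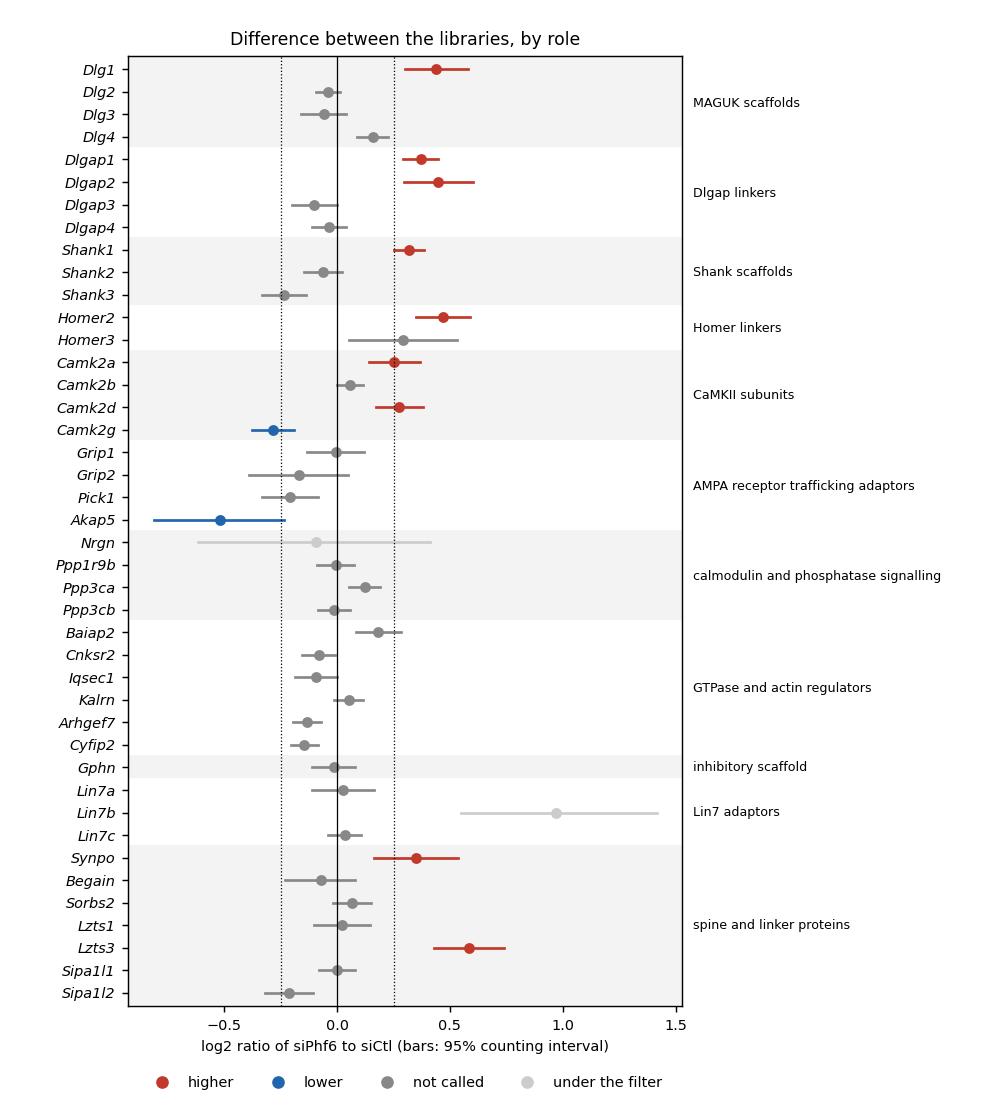
Log2 ratio of siPhf6 to siCtl for each of the 42 genes, grouped by role; bars are 95% intervals from counting error and dotted lines mark the limit of 0.25. Called genes are in red (9 higher) and blue (2 lower), and all 40 kept members lie between -0.52 and 0.58.

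CaMKII is the most abundant kinase of the postsynaptic density and is assembled as a holoenzyme of subunits from 4 genes, whose ratios went in opposite directions here. Camk2a (ENSMUSG00000024617), the alpha subunit gene that is raised as forebrain excitatory neurons mature, had 1246 reads or 103 RPM in siCtl and 1291 reads or 122 RPM in siPhf6 (log2 ratio 0.25, 0.14 to 0.37). It was called higher, at 0.254 against the limit of 0.25, and the call was lost at 0.245 with TMM or DESeq2 scaling and at 0.247 with the GC trend subtracted. Camk2d (ENSMUSG00000053819, chr3:126596302-126846326, plus strand), which encodes the delta subunit, had 1469 reads or 121 RPM and 1546 reads or 146 RPM (log2 ratio 0.28, 0.17 to 0.38), and was called higher.

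Camk2g (ENSMUSG00000021820, chr14:20734875-20794088, minus strand), the gamma subunit gene, had 2252 reads or 185 RPM in siCtl and 1607 reads or 152 RPM in siPhf6 (log2 ratio -0.28, -0.38 to -0.19). It was 1 of the 2 members called lower. Camk2b, the beta subunit gene, gave about 50% of the family's reads in both libraries and had 5067 and 4577 reads (log2 ratio 0.06, -0.00 to 0.11). Summed over the 4 genes, CaMKII transcripts were at 825 RPM in siCtl and 854 RPM in siPhf6 (log2 ratio 0.05, 0.01 to 0.09), close to the ratio of Camk2b, whereas the other 3 genes lay farther from 0.

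The differences among paralogs can be read without any scaling between libraries, from the ratio of the reads of one paralog to those of another within each library. Of 27 pairs of member paralogs, 14 had a log2 change of this ratio over 0.25 in size, and for 20 the counting interval of the change excluded 0. Pairs of a family share genes and are not independent. Each of the 14 held Lin7b or a member called above, so that they largely restate those single-gene differences. The reads of Camk2d per read of Camk2g went from 0.652 in siCtl to 0.962 in siPhf6, a log2 change of 0.56 (0.42 to 0.70). The reads of Shank1 per read of Shank3 went from 1.77 to 2.60, a log2 change of 0.55 (0.44 to 0.67). The corresponding change was 0.55 (0.37 to 0.73) for Dlgap2 against Dlgap3 and 0.50 (0.33 to 0.67) for Dlg1 against Dlg3. Each of these 4 pairs was named because it had the largest change of its family. The Lin7 family had larger ones, Lin7b against Lin7a at 0.95 (0.51 to 1.39) and against Lin7c at 0.95 (0.52 to 1.37). Lin7b had only 73 reads in siCtl and 125 in siPhf6. No share of other gene pairs past the same limits was computed, so that the counts describe the 27 pairs only.

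Other pairs kept their proportion within narrow intervals. The log2 change was 0.01 (-0.15 to 0.16) for Lin7c against Lin7a, 0.02 (-0.09 to 0.13) for Dlg2 against Dlg3, and 0.02 (-0.13 to 0.17) for Camk2d against Camk2a. For calcineurin the change of Ppp3ca against Ppp3cb was small but beyond counting error, at 0.14 (0.04 to 0.23). How such changes of makeup are distributed over paralogous genes outside the 42 was not tested.

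Expressed as shares of a family's reads, Shank1 made up 43.8% of Shank reads in siCtl (exact 95% interval 42.7 to 44.9) and 51.6% in siPhf6 (50.5 to 52.8), while Shank3 went from 24.7% (23.7 to 25.6) to 19.8% (18.9 to 20.8). Among CaMKII reads, Camk2g made up 22.4% in siCtl and 17.8% in siPhf6, Camk2d 14.6% and 17.1%, and Camk2a 12.4% and 14.3%. Among Dlgap reads, Dlgap1 went from 30.9% to 36.4% and Dlgap4 from 39.2% to 34.9%. Dlg1 went from 6.45% to 8.43% of Dlg reads. Corrected for merged exon length, the share of the family level was 42.6% in siCtl and 50.5% in siPhf6 for Shank1, 27.5% and 22.2% for Shank3, 30.9% and 25.2% for Camk2g, 13.8% and 17.1% for Dlgap1, and 37.1% and 34.7% for Dlgap4. By the same length-corrected share Dlg1 had 7.21% and 9.45%, Dlg2 37.3% and 35.1%, Dlg3 29.7% and 27.6%, and Dlg4 25.9% and 27.9%.

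**Figure D3:**
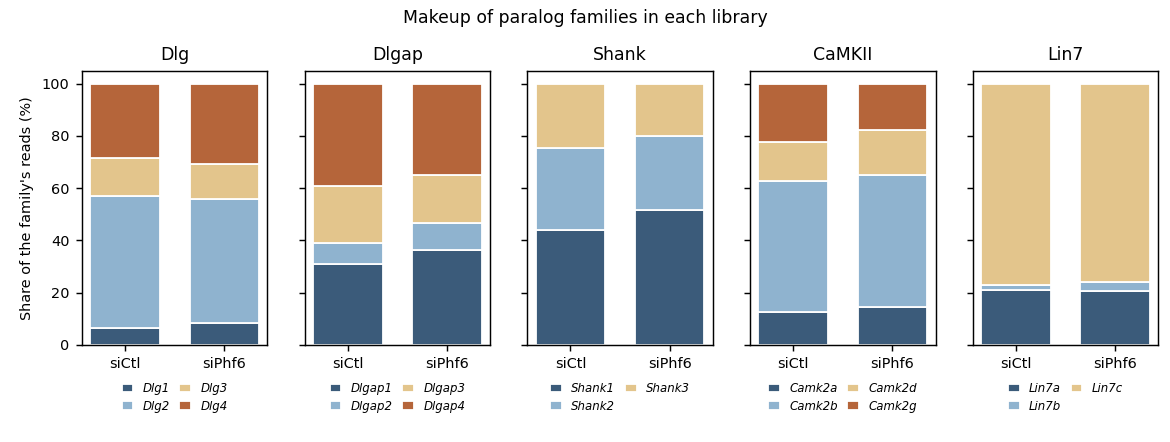
Share of a family's reads (%) given by each paralog in the siCtl and siPhf6 libraries, for the Dlg, Dlgap, Shank, CaMKII and Lin7 families. Shank1 takes 43.8% of Shank reads in siCtl and 51.6% in siPhf6, and Camk2g takes 22.4% and 17.8% of CaMKII reads.

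All 4 adaptors of AMPA receptor trafficking had a log2 ratio below 0, except that Grip1 turned to 0.02 with the length trend and 0.0047 with the GC trend subtracted, and 1 of the 4 was called. Akap5 (ENSMUSG00000021057), which encodes the anchor AKAP79/150 that places protein kinase A and calcineurin beside AMPA receptors, lies at chr12:76324891-76334153 on the plus strand. It had 266 reads or 21.9 RPM in siCtl and 161 reads or 15.2 RPM in siPhf6 (log2 ratio -0.52, -0.81 to -0.23), and was called lower, the largest difference of a kept member in that direction. It was also the kept member with the fewest reads in siPhf6, which the width of its interval shows.

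Pick1, whose PDZ and BAR domain protein takes part in AMPA receptor endocytosis, had 1229 reads in siCtl and 925 in siPhf6 (log2 ratio -0.21, -0.33 to -0.08). Grip1 and Grip2 encode PDZ proteins that bind the GluA2 tail. Grip1 had 1137 and 983 reads (log2 ratio -0.01, -0.13 to 0.12), and Grip2 had 391 and 302 reads (log2 ratio -0.17, -0.39 to 0.05). None of these 3 was called. Of the exonic bases of Pick1, 18.6% overlap those of another annotated gene, Gm49486, on the same strand.

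Within calmodulin and phosphatase signalling no gene was called. Ppp3ca and Ppp3cb, the calcineurin catalytic subunit genes, had nearly the same number of reads in siCtl, 3538 and 3534, and 3349 and 3045 reads in siPhf6. Their log2 ratios were 0.12 (0.05 to 0.19) and -0.01 (-0.08 to 0.06). Ppp1r9b, the gene of spinophilin, which targets protein phosphatase 1 to spines, had 2608 and 2257 reads (log2 ratio -0.01, -0.09 to 0.08). Nrgn had a log2 ratio of -0.10 with an interval of -0.62 to 0.41 and was too shallow to show a difference of this size.

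None of the 6 regulators of small GTPases and actin was called, with log2 ratios from -0.14 to 0.18. Kalrn, a guanine nucleotide exchange factor of spines, had 4275 reads in siCtl and 3849 in siPhf6 (log2 ratio 0.05, -0.01 to 0.11). Arhgef7 (beta-PIX), an exchange factor for Rac and Cdc42, had 4675 and 3701 reads (log2 ratio -0.13, -0.20 to -0.07). Cyfip2, a subunit of the WAVE complex that drives branched actin, had 5106 and 4013 reads (log2 ratio -0.14, -0.20 to -0.08). The latter pair lay below 0 beyond counting error, but under the limit for a call.

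Baiap2 (IRSp53), which links Rac to actin and binds PSD-95, had 1614 reads in siCtl and 1592 in siPhf6 (log2 ratio 0.18, 0.08 to 0.28), the highest of this group. Iqsec1, an exchange factor for Arf6, had 2159 and 1758 reads (log2 ratio -0.09, -0.19 to -0.00). Cnksr2, an X-linked scaffold of Ras signalling, had 3231 and 2653 reads (log2 ratio -0.08, -0.16 to -0.01). Both of these intervals stay within 0.25 of 0.

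Gphn encodes gephyrin, the scaffold of inhibitory rather than excitatory postsynapses. It had 1972 reads in siCtl and 1695 in siPhf6 (log2 ratio -0.02, -0.11 to 0.08). The Lin7 genes encode PDZ adaptors (Veli/MALS) that pair with CASK and Mpp scaffolds. Lin7a had 920 and 814 reads (log2 ratio 0.03, -0.11 to 0.16), and Lin7c had 3366 and 2993 reads, also at 0.03 (-0.04 to 0.10). These 3 genes did not pass the limit for a call.

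Lin7b stood apart from its paralogs but was below the filter. It had 73 reads or 6.01 RPM in siCtl and 125 reads or 11.8 RPM in siPhf6 (log2 ratio 0.97, 0.55 to 1.42), the highest value of the 42 genes. With a filter of 10 reads or of 1 read in place of 150 it was called higher. Its share of Lin7 reads was 1.67% (1.31 to 2.10) in siCtl and 3.18% (2.65 to 3.78) in siPhf6. Of its exonic bases 24.4% overlap annotated genes on the opposite strand, Gm45619 and Mtag2, and reads there cannot be told apart without strand.

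The largest difference of a kept member was among the spine and linker proteins. Lzts3 (ENSMUSG00000037703, chr2:130632839-130642803, minus strand) encodes ProSAPiP1, which binds the PDZ domain of Shank proteins and the Rap GTPase activator Sipa1l1. It had 612 reads or 50.3 RPM in siCtl and 797 reads or 75.5 RPM in siPhf6 (log2 ratio 0.58, 0.43 to 0.74). This put siPhf6 at 149.8% of siCtl, just under a fold of 1.5, and 7.50% of all kept genes had a larger absolute log2 ratio. Its paralog Lzts1 had 1138 and 1005 reads (log2 ratio 0.02, -0.10 to 0.15).

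Synpo (ENSMUSG00000043079), the gene of synaptopodin of the spine apparatus, had 454 reads or 37.4 RPM in siCtl and 503 reads or 47.6 RPM in siPhf6 (log2 ratio 0.35, 0.16 to 0.54), and was called higher. Sipa1l1 (SPAR) had 2688 and 2337 reads (log2 ratio 0.00, -0.08 to 0.08), whereas its paralog Sipa1l2 had 1657 and 1243 reads (log2 ratio -0.21, -0.32 to -0.11). Sipa1l2 was not called. Begain, which binds PSD-95, had 751 and 620 reads (log2 ratio -0.07, -0.23 to 0.08), and Sorbs2, an actin-associated adaptor, had 2386 and 2168 reads (log2 ratio 0.06, -0.02 to 0.15).

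Promoters of the kept members with the largest difference in each direction are printed from RefSeq (build GRCm38.p6), from 250 bases before to 50 bases after the transcript start, 5′ to 3′ on the gene's own strand. Capitals mark a CCAAT box in either orientation (CCAAT or ATTGG), the only motif of those searched that occurs in either window. The Lzts3 promoter lies at chr2:130642795-130643094 on the minus strand and the Akap5 promoter at chr12:76324641-76324940 on the plus strand.
Lzts3: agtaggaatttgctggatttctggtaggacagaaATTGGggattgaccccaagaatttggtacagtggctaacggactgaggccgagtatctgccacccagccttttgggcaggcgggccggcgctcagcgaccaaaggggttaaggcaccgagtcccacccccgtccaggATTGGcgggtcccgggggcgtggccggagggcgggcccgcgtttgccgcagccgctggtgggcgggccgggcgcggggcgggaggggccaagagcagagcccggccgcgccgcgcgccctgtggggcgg
Akap5: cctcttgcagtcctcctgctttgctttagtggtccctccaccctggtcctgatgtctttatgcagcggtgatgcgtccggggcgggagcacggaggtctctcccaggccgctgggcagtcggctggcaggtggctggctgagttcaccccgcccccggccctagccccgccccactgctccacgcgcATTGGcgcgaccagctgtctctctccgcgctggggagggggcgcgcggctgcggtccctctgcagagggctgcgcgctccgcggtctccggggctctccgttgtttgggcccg
Both windows are rich in G and C (69.3% for Lzts3 and 70.7% for Akap5), Lzts3 holds the CCAAT letters at 2 places and Akap5 at 1, all in the ATTGG orientation.

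Of the 42 genes, 34 matched the RefSeq promoter table, with 60 promoters. The called members Dlgap2, Synpo, Shank1, Camk2a and Camk2g had no match, so that their promoters were not searched. The CCAAT letters were found in 21 of these 60 (35%), against 37.4% of 32851 mouse promoters of the same length. The E-box CACGTG was found in 5 of 60 (8.33%, against 7.15%), in Begain, Dlg1 and Dlgap1, and the cyclic AMP response element TGACGTCA in 1 (1.67%, against 1.79%), in Arhgef7. Some windows of the same gene overlap. The Begain windows with the E-box, chr12:109068168-109068467 and chr12:109068193-109068492, hold the same site, which is counted in both. The repeat CACACACACA (or its reverse complement) was in none of the 60 and in 1.61% of all promoters. So few promoters cannot tell none from a share that small. Both strands were searched, no motif contains another, and a match is a description of letters only. The median GC content was 64.2% for the member promoters and 52.7% for all.

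Gene structure and depth were set beside the differences. Across the 40 kept members Spearman's correlation of the log2 ratio was 0.12 with exon length, 0.09 with the genomic span, -0.10 with the GC content of the longest transcript and -0.10 with the number of reads. Over 10114 kept genes the same correlations were -0.12, -0.10, 0.06 and -0.02, in that order. The absolute log2 ratio had a Spearman correlation of -0.42 with the number of reads, against -0.23 over 10114 kept genes, so that members with few reads had larger ratios in either direction. These are correlations across genes of the same pair of libraries, and genes are not independent replicates.

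The other genes of the postsynapse, in 7 lists of 156 genes without the 42, had 142 kept genes of which 17 (11.97%) were higher and 19 (13.4%) lower, close to the backgrounds of 13.4% and 12.4%. Their median log2 ratio was 0.02. Past a fold of 1.5, which no kept member reached, 3 of them were higher and 5 lower. Among 62 other scaffolds and enzymes of the postsynaptic density 8 were higher and 8 lower. Mpp2, a MAGUK related to the Dlg genes, had 269 reads in siCtl and 555 in siPhf6 (log2 ratio 1.24, 1.03 to 1.46). Arc, an activity-regulated gene that acts in AMPA receptor endocytosis, had 590 and 998 reads (log2 ratio 0.96, 0.81 to 1.11). Arhgef2 (GEF-H1), a microtubule-associated exchange factor, had 1983 and 796 reads (log2 ratio -1.11, -1.23 to -0.99).

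The partners of CaMKII, calcineurin and Akap5 had calls on both sides, against 13.4% of all kept genes higher and 12.4% lower. Of 15 CaMK relatives and calmodulins 3 were higher and 2 lower, among them the CaMKII inhibitor gene Camk2n1 at 0.51 (0.31 to 0.71) and the upstream kinase gene Camkk2 at -0.49 (-0.62 to -0.36). Of 18 genes of the calcineurin and AKAP complex 2 were higher and 4 lower. Akap7, another anchor of protein kinase A, had 439 reads in siCtl and 156 in siPhf6 (log2 ratio -1.28, -1.56 to -1.02), and Akap12 was at -0.45 (-0.58 to -0.32). Of the other genes of the WAVE complex, among them the Cyfip2 paralog Cyfip1, 1 of 8 was called, Wasf2 at -0.69 (-0.96 to -0.43).

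The background for the receptor and presynaptic lists was again 13.4% higher and 12.4% lower. Of 14 glutamate receptor genes none was higher and 1 was lower, Grin2b of the NMDA receptor, with 6088 reads in siCtl and 4248 in siPhf6 (log2 ratio -0.32, -0.37 to -0.26). Of 18 genes of the inhibitory postsynapse, to which gephyrin belongs, 3 were higher and 2 lower. Among the lower ones was Gabrb2, a GABA-A receptor subunit gene, with 1558 reads in siCtl and 932 in siPhf6 (log2 ratio -0.54, -0.66 to -0.42). Of 7 partners of Lin7 1 was higher, Mpp7 at 0.48 (0.22 to 0.74), and 1 lower, Mpp5 at -0.36 (-0.55 to -0.16). On the presynaptic side 5 of 40 genes (12.5%) were higher and 6 (15%) lower, near that background, with a median log2 ratio of 0.04.

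**Figure D4:**
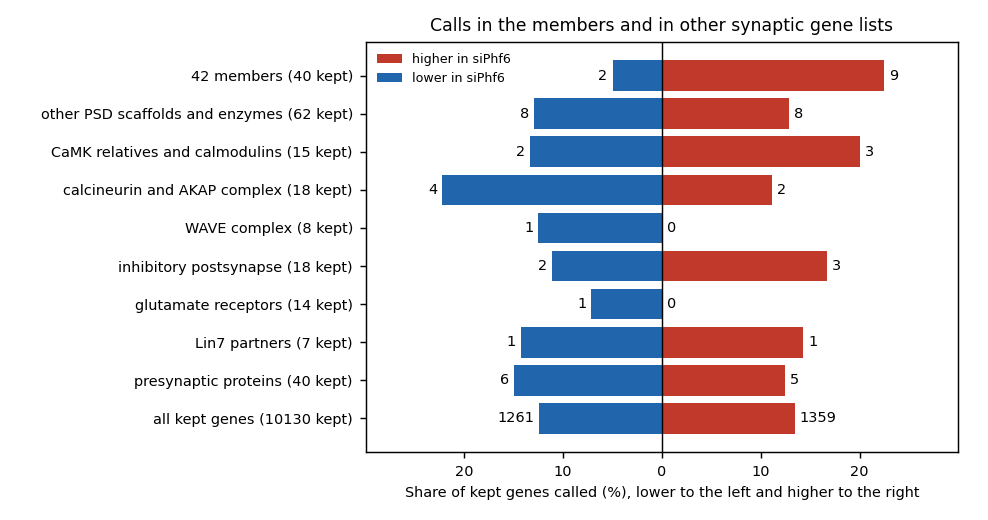
Share of kept genes called higher (red, to the right) and lower (blue, to the left) in siPhf6, in percent, for the 42 members, the 7 lists of other postsynaptic genes, the presynaptic list and all 10130 kept genes; numbers at the bars count genes. The members stand at 9 higher and 2 lower, all kept genes at 1359 higher and 1261 lower, and the bars of lists with few genes rest on 1 to 4 genes each.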

How the data were processed

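Cortical progenitors were profiled by mRNA-seq using a TruSeq RNA v2 kit (unstranded). The authors aligned with HISAT2 to mm10, removed duplicates with samtools and deposited raw counts per gene from HTSeq (GENCODE M9). Versions are not given in the sources used here. The submitters' processing notes also name deepTools 3.5.1. Reads assigned to no gene (25.3% and 24.1%) or to several (1.99% and 2.04%) were left out of library totals.

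Gene IDs without version were matched to GENCODE M21 on GRCm38 (47224 of 47643 genes). Genes with at least 150 reads in either library were kept, 1 read was added to each count, and counts were scaled to the total of gene reads. Intervals are exact (Clopper-Pearson, 95%) for reads of a gene between the libraries, and from the counting variance of 4 read numbers for paralog ratios. Values of 1 library per group allow no replicate-based fit. Alternatives used edgeR 4.0.16 and DESeq2 1.42.0, and another filter, pseudocount, fold limit or trend correction; other steps used Python 3.11.15 with scipy 1.17.1 and statsmodels 0.14.6. The scripts were tested on simulated libraries with counting error only and with changes larger than those of the members. That test does not cover spread between cultures or smaller changes.

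The members and gene lists were chosen with earlier results of these data known. All members are named, and from other lists at most 3 called genes in each direction with the largest ratios. Anks1a and Insyn2a were not matched by symbol, and 1 called gene is not reported here.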

Additional observations from a re-analysis of the deposited data

How the results depend on the processing

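All 11 member calls (9 higher, 2 lower) rest on counting error: the number called was 0, with 0 higher and 0 lower, at a fold of 1.5, and 0 in edgeR's exact test with an assumed coefficient of variation of 0.1 or 0.2. The other postsynaptic genes went from 36 calls to 8 (3 higher, 5 lower) at a fold of 1.5, 5 (2 higher, 3 lower) with 0.1 and 0 with 0.2. Presynaptic genes went from 11 calls to 1 (0 higher, 1 lower) at a fold of 1.5, and to 0 with 0.1 or 0.2. The setting of 0.2 called 6 genes higher and 3 lower of all kept genes, and thus says little on single members. With TMM or DESeq2 scaling or the GC trend subtracted Camk2a lost its call, and with the GC trend Shank3 gained one. Lin7b, under the filter of 150 reads, was called higher at 0.97 with a filter of 10 reads or 1 read, for 12 calls. No other member call changed with scaling, filter, pseudocount or trend, and no called member changed sign. Of members not called, Dlg2 (0.01), Grip1 (0.02) and Ppp3cb (0.01) turned positive with the length trend subtracted, Grip1 also with the GC trend, and Sipa1l1 turned negative with TMM or DESeq2 scaling (-0.01) and by less with the other totals or the GC trend. TMM and DESeq2 scaling moved the split of calls over all genes from 1359 higher and 1261 lower to 1286 and 1325.

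No paired analysis was possible because each group has 1 library, and for the same reason no replicate was left out. The depth leaves Nrgn, Lin7b, Akap5 and Homer3 with wide intervals.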
